A study of Arabidopsis thaliana with 8 samples.

Results

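The cysteine-rich receptor-like kinases (CRKs) of Arabidopsis were followed in leaf RNA of plants that overexpress RAP2.9 and of their wild type. The members were chosen by locus, as 40 genes of the DUF26 receptor-like kinase family. The array holds 34290 genes, counted by locus or, for probes without a matched locus, by the name given on the array. All genes tested, below, are counted in the same way. The family was proposed with the genotype differences of these same 8 arrays known, so the differences of its members are given as a description and without a test. Of the 40 loci, 33 had a matched probe, 28 passed the filter on dim probes and 5 did not, and the other 7 had no matched probe.

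A CRK sits in the plasma membrane with a cysteine-rich DUF26 part outside the cell and a kinase part inside it. Members are known as relays between apoplastic reactive oxygen, pathogen patterns and the cell interior, and many CRK transcripts respond to salicylic acid, ozone and bacteria. Most of the genes lie in tandem on chromosome 4, which makes neighbouring members close relatives in sequence.

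RNA came from leaves of 35S::Rap2.9-GFP plants (4 arrays) and of Col-0 wild-type plants (4 arrays), all 54 days old, grown side by side and left without treatment. The 35S promoter is a strong viral promoter that is active in most cell types, and the transgene fuses RAP2.9, a DREB-type AP2/ERF transcription factor, to green fluorescent protein. The 4 replicates of each genotype are called biological in the study's design text. The labels do not say whether each was a single plant or a pool, nor how many transgenic lines were used. The p-values set the genotype difference against the spread between these samples within a genotype. Whether that spread covers variation between transgenic lines is not known.

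Each array was an Agilent 1-colour array, and values are log2 signals relative to the array's own 75th percentile, so that 0 means a signal at that percentile. Signals cleared the background for 72.5% to 84.3% of an array's probes, with the highest share on 35S::Rap2.9-GFP array 1. Over the probes that passed the filter on dim probes and had a value on every array, correlations were 0.982 to 0.993 among the transgenic arrays. They were 0.986 to 0.992 among the Col-0 arrays and 0.964 to 0.977 between genotypes. Each of 2 slides carried 2 arrays of each genotype. The number of arrays limits the precision of every value below, and in whole leaves a change in the number of cells of a type and a change in RNA per cell cannot be told apart.

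RAP2.9 (AT4G06746) itself checks the labels. Its brighter probe read 5.69, 6.14, 5.90 and 5.58 on the 35S::Rap2.9-GFP arrays and 1.39, 1.87, 1.77 and 1.72 on the Col-0 arrays, a log2 difference of 4.14 ± 0.149 (SE, limma adjusted p = 6.32e-06) or 17.7-fold. A second RAP2.9 probe ran the other way, with -0.21, 0.52, -0.55 and -0.44 in 35S::Rap2.9-GFP leaves against 1.38, 1.62, 1.65 and 1.76 in Col-0 leaves (difference -1.77 ± 0.228, SE, limma adjusted p = 0.00115). Where the probes lie relative to the transgene was not tested.

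More of the measured CRKs stood higher in 35S::Rap2.9-GFP leaves than stood lower, with a positive difference for 24 of 28 (85.7%, against 53.5% of all genes). In the fit across all genes, a gene was called when its limma p-value adjusted over 25089 genes was below 0.05. Of the 28 members tested, 15 were called higher (53.6%, against 18.6% of all genes), 3 were called lower (10.7%, against 16.0% of all genes) and 10 were not called, while 34.6% of all genes were called in either direction. The 4 arrays of one genotype did not overlap the 4 of the other for 19 members (67.9%, against 36.7% of all genes), 16 of them higher and 3 lower in the transgenic leaves. The median log2 difference was 0.47 over the tested members and 0.03 over all genes tested. With normexp background correction from the median signals, 6 members were called higher and 2 lower, and CRK2, CRK11, CRK15, CRK18, CRK19, CRK23, CRK29, CRK36, CRK37 and CRK41 were no longer called, at 0.14 to 0.84 for those that had been higher and -0.35 for CRK29. Nothing is inferred from these shares, because the family was picked with this contrast in view and because a member could pass the filter through the genotype in which it was bright.

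**Figure D1:**
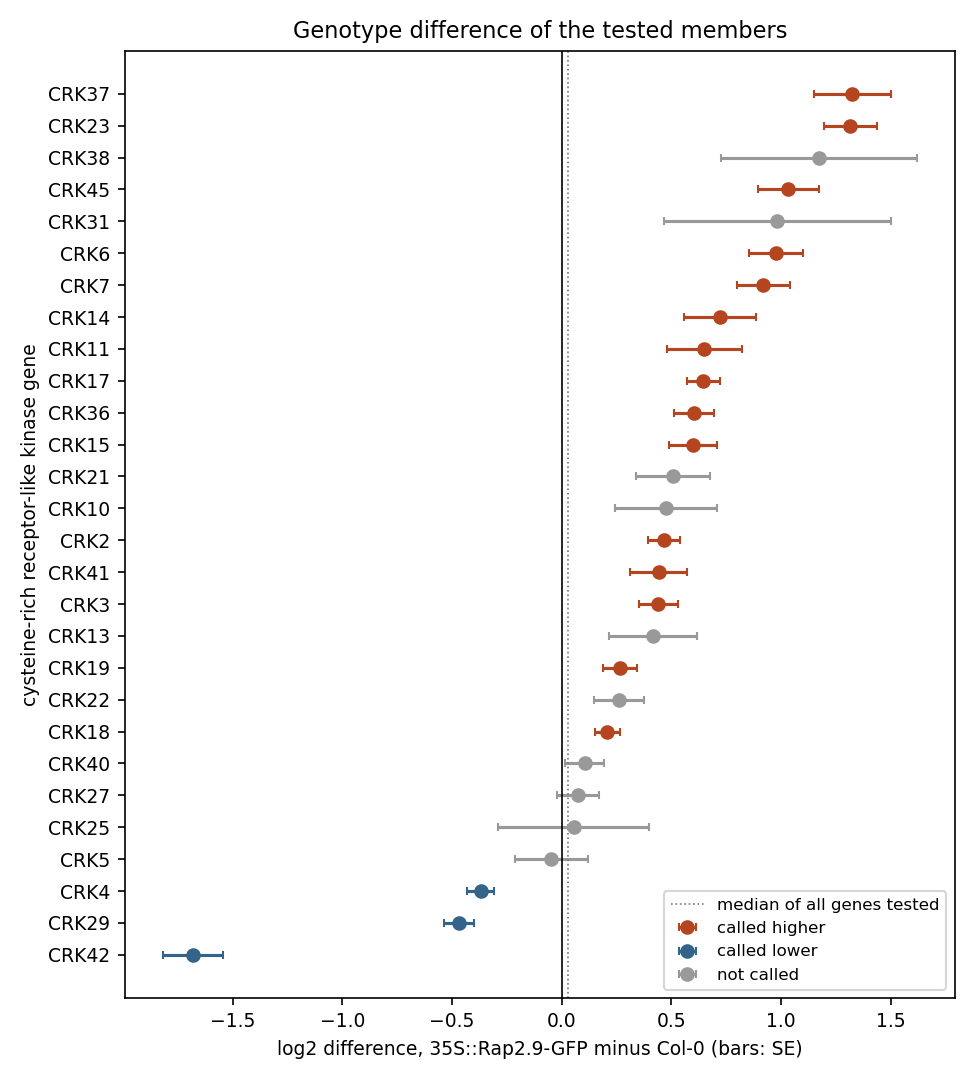
Log2 difference (35S::Rap2.9-GFP minus Col-0, horizontal axis) of each of the 28 tested CRK genes (vertical axis), with its standard error as bars from 4 arrays per genotype and the median of all genes as a dotted line. The points run from 1.33 for CRK37 to -1.68 for CRK42, and 24 of the 28 lie above 0.

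Among members known from work on reactive oxygen, CRK2, CRK6, CRK7 and CRK11 were called higher and CRK10 was not called. This grouping and those below were made for reading, with the values known, and a member can belong to several groups. Of all genes, 18.6% were called higher, and nothing is inferred from the groups. CRK6 (AT4G23140) and CRK7 (AT4G23150), neighbours known to protect against extracellular oxidative stress, were both higher on every transgenic array than on any Col-0 array. CRK6 read 1.14, 1.37, 1.59 and 1.70 on 35S::Rap2.9-GFP arrays 1 to 4 and 0.41, 0.40, 0.50 and 0.56 on Col-0 arrays 1 to 4. The gap between the genotypes was wider than the range of the Col-0 arrays, and the difference was 0.98 ± 0.123 (SE, n = 4 per genotype), or 1.97-fold. CRK7 read -0.72, -0.77, -0.85 and -0.82 in the transgenic leaves and -1.99, -1.60, -1.42 and -1.83 in Col-0 leaves. The transgenic values lay within a narrower range than the Col-0 values, and the difference was 0.92 ± 0.121 (SE), or 1.89-fold.

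CRK2 (AT1G70520), which phosphorylates the NADPH oxidase RBOHD, was called higher with a smaller difference of 0.47 ± 0.073 (SE). It averaged 2.87 ± 0.1 in 35S::Rap2.9-GFP leaves and 2.40 ± 0.093 in Col-0 leaves (SD, n = 4 each), without overlap. CRK3 (AT1G70530), the gene beside it on chromosome 1, differed by 0.44 ± 0.089 (SE), where 1 Col-0 spot was an outlier and was left out. With that spot kept, CRK3 differed by 0.30 and was not called, while a second CRK3 probe differed by 0.50. CRK11 (AT4G23190), whose transcript is known to respond to oxidative stress and pathogens, differed by 0.65 ± 0.171 (SE) and was called higher, though not without 35S::Rap2.9-GFP replicate 4, at 0.59. CRK10 (AT4G23180), of which a hyperactive allele alters xylem vessels, was the one not called, at 0.48 ± 0.234 (SE): its transgenic arrays ran from 2.08 to 3.05 and overlapped the Col-0 arrays, at 1.83 to 2.36. Without 35S::Rap2.9-GFP replicate 3 CRK10 differed by 0.66 and was called.

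CRK45 and CRK36 act together in abscisic acid and osmotic responses, and both were called higher. CRK45 (AT4G11890, also ARCK1), a kinase that lacks the extracellular part, read -0.13, -0.14, -0.11 and 0.27 on the 35S::Rap2.9-GFP arrays and -1.31, -1.01, -1.14 and -0.78 on the Col-0 arrays. All 4 transgenic values lay above all 4 Col-0 values, and the difference was 1.03 ± 0.138 (SE), or 2.05-fold. Both other probes of CRK45 gave like differences, of 1.02 and 0.92. CRK36 (AT4G04490), its partner, averaged -1.43 ± 0.03 in transgenic leaves and -2.04 ± 0.181 in Col-0 leaves (SD, n = 4 each), a difference of 0.60 ± 0.091 (SE). CRK41 (AT4G00970), linked to the salt response, was called higher at 0.44 ± 0.129 (SE), with 35S::Rap2.9-GFP array 1 the highest at -0.16 and array 3 the lowest at -0.74, against -0.96 to -0.82 on the Col-0 arrays. It lost that call without 35S::Rap2.9-GFP replicate 4 or Col-0 replicate 2, 3 or 4, at 0.41 to 0.43.

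Among members known from work on immunity and cell death, CRK19 was called higher, CRK4 and CRK29 were called lower, and CRK5 and CRK13 were not called. The group is not complete: CRK11, which also responds to pathogens, was placed above and was called higher. Other members placed above can belong here too. Of these, CRK2, CRK3, CRK6, CRK7, CRK36, CRK41 and CRK45 were called higher and CRK10 was not called. Of all genes, 18.6% were called higher and 16.0% lower, and nothing is inferred from the group. CRK4 (AT3G45860), CRK5 (AT4G23130) and CRK19 (AT4G23270) are induced by salicylic acid and pathogens and can trigger cell death when strongly expressed. CRK4 was called lower: it averaged 1.52 ± 0.1 in 35S::Rap2.9-GFP leaves and 1.89 ± 0.04 in Col-0 leaves (SD, n = 4 each), a difference of -0.37 ± 0.062 (SE) without overlap. CRK19 was called higher by 0.27 ± 0.077 (SE), or 1.20-fold, but the call was lost with median scaling, at 0.18, and in 7 of 8 fits that left out 1 array, all but the one without 35S::Rap2.9-GFP replicate 3. Those 8 fits gave differences of 0.21 to 0.32.

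CRK5 had the smallest difference of all members, -0.05 ± 0.165 (SE). It read -0.49, -0.015, 0.02 and 0.013 on the transgenic arrays and -0.13, -0.40, 0.016 and 0.22 on the Col-0 arrays, so the genotypes overlapped throughout. CRK20 (AT4G23280), the other salicylic acid-induced member of that group, had no matched probe. CRK13 (AT4G23210), whose overexpression raises salicylic acid and resistance to bacteria, was not called at 0.42 ± 0.2 (SE): 3 of its transgenic arrays lay between -3.49 and -3.45, within the Col-0 range of -3.95 to -3.42, and 35S::Rap2.9-GFP array 1 stood above them at -2.71. CRK29 (AT4G21410), studied with CRK28 in pattern-triggered immunity, was called lower. It averaged -2.51 ± 0.037 in transgenic leaves and -2.05 ± 0.12 in Col-0 leaves (SD, n = 4 each), a difference of -0.47 ± 0.069 (SE). CRK28 (AT4G21400), which associates with BAK1, had no matched probe.

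The member with the largest difference in either direction was CRK42 (AT5G40380), and it was lower. CRK42 read -2.53, -2.88, -2.25 and -2.59 on the 35S::Rap2.9-GFP arrays and -0.79, -1.07, -0.91 and -0.76 on the Col-0 arrays. The genotypes were separated by more than a log2 unit, and the difference was -1.68 ± 0.138 (SE), or 3.20-fold lower. A second CRK42 probe was well above background on 0 of 4 transgenic arrays and on 4 of 4 Col-0 arrays. Set against the lowest signal among probes well above background on each transgenic array, that probe was at least 1.38-fold lower in the transgenic leaves.

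CRK37 (AT4G04500) and CRK23 (AT4G23310) had the largest differences on the higher side. CRK37 read -3.12, -3.02, -3.31 and -3.53 in 35S::Rap2.9-GFP leaves and -4.83, -4.83, -4.32 and -4.29 in Col-0 leaves. The arrays did not overlap, and the difference was 1.33 ± 0.174 (SE), or 2.51-fold. With normexp CRK37 had a difference of 0.46 and was no longer called. CRK23 read -1.73, -1.91, -1.82 and -2.07 on the transgenic arrays and -3.51, -3.12, -3.16 and -3.02 on the Col-0 arrays. Those arrays were also separate, with a difference of 1.32 ± 0.121 (SE), or 2.49-fold, and with normexp the value was 0.84 and no longer called.

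CRK38 and CRK31 were dim, and their differences of about a log2 unit were not called and moved with the processing. CRK38 (AT4G04510) was well above background on 3 arrays of each genotype. It read -5.12, -6.08, -5.32 and -5.56 in the transgenic leaves and -8.04, -6.22, -6.42 and -6.08 in Col-0 leaves, with the second transgenic and the fourth Col-0 value nearly meeting, for a difference of 1.17 ± 0.448 (SE). CRK31 (AT4G11470) was well above background on 4 transgenic and 2 Col-0 arrays. It read -5.38, -6.25, -6.29 and -5.97 in 35S::Rap2.9-GFP leaves and -5.47, -8.03, -7.24 and -7.09 in Col-0 leaves, where Col-0 array 1 stood among the transgenic values, for a difference of 0.98 ± 0.516 (SE). With normexp these differences were -0.06 for CRK38 and 0.05 for CRK31, and with quantile normalization 0.70 and 0.46, none of them called. Leaving out single arrays moved them too: CRK38 stood at 0.72 without Col-0 replicate 1, and CRK31 at 0.63 without Col-0 replicate 2 and at 1.48, then called, without Col-0 replicate 1. CRK25 (AT4G05200), also dim, read -5.55, -6.47, -6.50 and -6.81 on the transgenic arrays and -6.25, -5.71, -6.66 and -6.95 on the Col-0 arrays. Its difference of 0.06 ± 0.344 (SE) was far within the spread of either genotype and changed sign with normexp, at -0.18, and with quantile normalization, at -0.41.

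**Figure D2:**
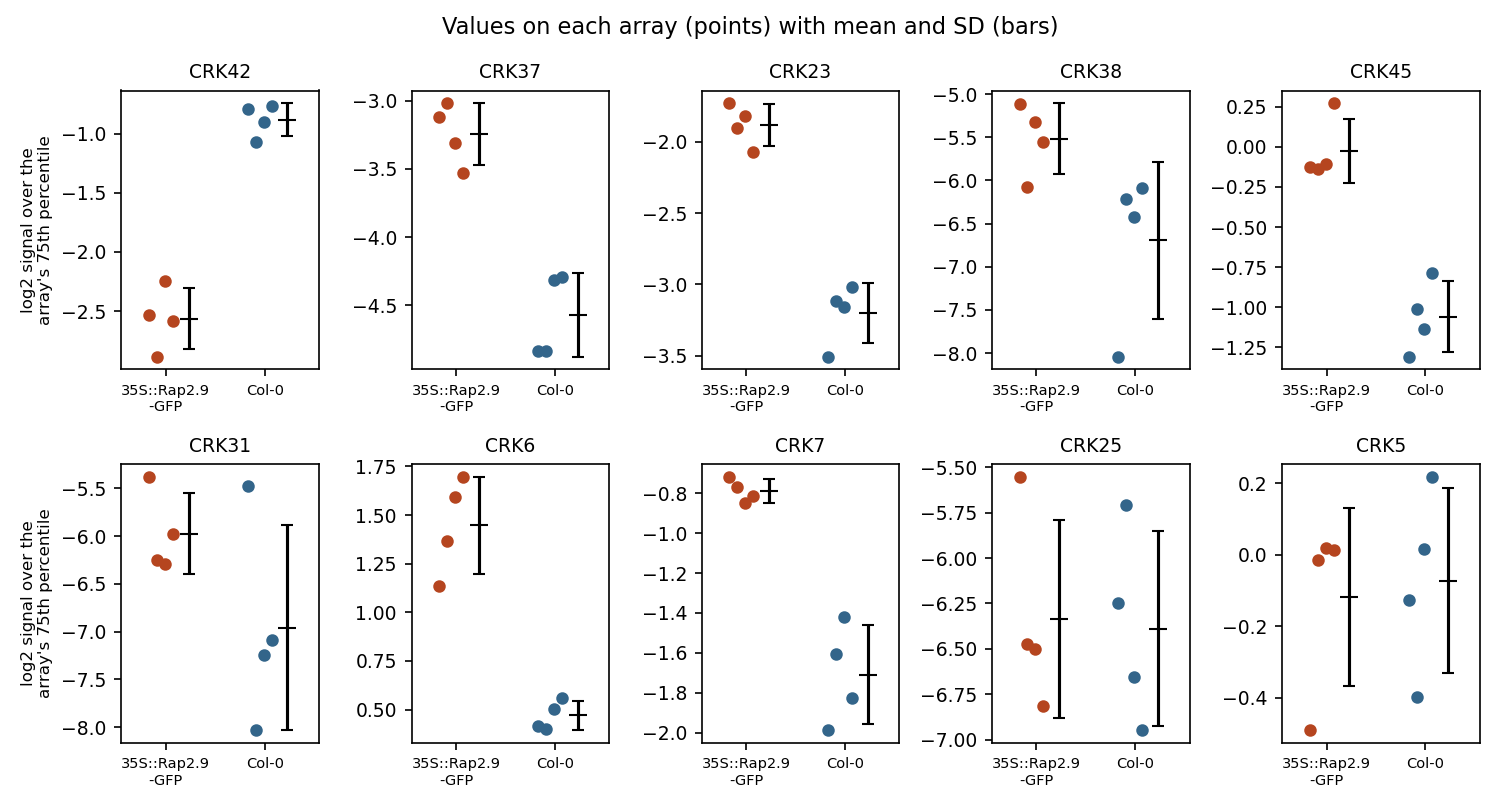
Values on each array (points, log2 signal minus the log2 75th percentile of its array, vertical axis, scaled per panel) for the members with the 8 largest and the 2 smallest differences, 35S::Rap2.9-GFP left of Col-0, with mean and SD as bars. CRK6, CRK7, CRK23, CRK37 and CRK45 lie wholly above Col-0 and CRK42 wholly below, while CRK5, CRK25 and CRK31 overlap.

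The chromosome 4 tandem array from CRK5 to CRK24 (AT4G23130 to AT4G23320) holds 19 of the 40 members, of which 14 were tested. In that array 9 members were called higher (18.6% of all genes were), 0 were called lower by limma (also 0 at an unadjusted p below 0.05; 16.0% of all genes were called lower) and 13 had a positive difference (53.5% of all genes did). The median was 0.55, with a range from -0.05 to 1.32, and nothing is inferred from these counts. Besides CRK6, CRK7, CRK11, CRK19 and CRK23, the calls were CRK14 (AT4G23220) at 0.72 ± 0.164, CRK15 (AT4G23230) at 0.60 ± 0.111, CRK17 (AT4G23250, also EMB1290) at 0.65 ± 0.075 and CRK18 (AT4G23260) at 0.21 ± 0.058 (SE). CRK14 averaged 0.52 ± 0.314 in 35S::Rap2.9-GFP leaves and -0.21 ± 0.169 in Col-0 leaves (SD, n = 4 each). CRK21 (AT4G23290), at 0.51 ± 0.169, and CRK22 (AT4G23300), at 0.26 ± 0.115 (SE), were not called, and the highest Col-0 value lay above the lowest transgenic value for both. Without 35S::Rap2.9-GFP replicate 2, CRK21 and CRK22 were called at 0.63 and 0.37, and CRK21 also without Col-0 replicate 1, at 0.62. CRK18 lost its call without transgenic replicate 3 or 4 or Col-0 replicate 1, 2 or 3, at 0.19 to 0.20, and had 0.09 as the mean of its probes. CRK8, CRK12, CRK16, CRK20 and CRK24 had no matched probe.

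Gene order in the RefSeq annotation of TAIR10.1 placed 4 other genes inside that tandem array. Of the genes that are not members, 4 were tested within it or among the 3 genes on either side, and 0 of these 4 were called by limma (1 at an unadjusted p below 0.05). EP1, between CRK8 and CRK10, was the only one of these inside the tandem array, and it differed by 0.27 (limma adjusted p = 0.0926). It is not among the member loci, but whether EP1 itself belongs to the CRK family was not tested. It therefore does not stand for unrelated genes within the array. GSH1, AT4G23110 and AT4G23340 lie outside it, so they do not show how other genes within the array behaved. The glutathione synthesis gene GSH1 differed by -0.08 (limma adjusted p = 0.446). AT4G23110 and AT4G23340 had differences of 1.34 with standard errors of 0.716 and 0.998 (limma adjusted p = 0.186 and 0.331). These genes were named after their values were seen. Tandem CRK genes are close in sequence, and how far a probe also binds its neighbours' transcripts was not tested.

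**Figure D3:**
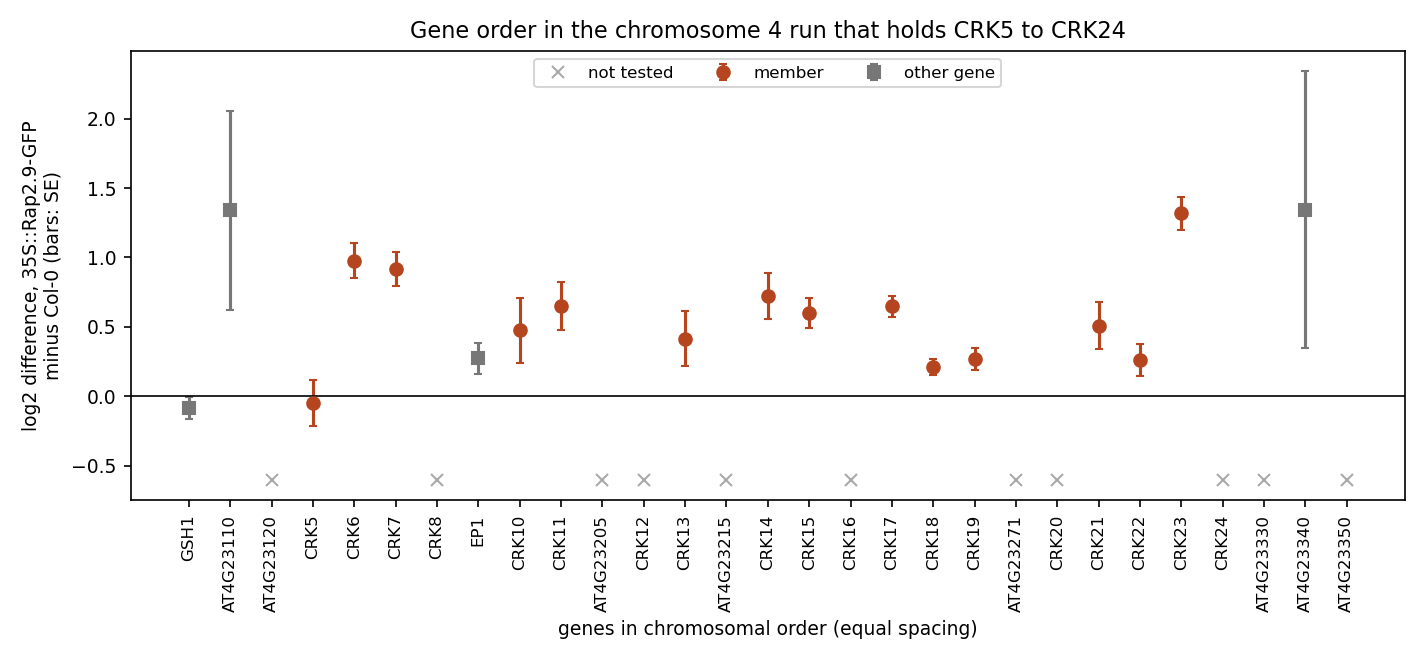
Genes of the chromosome 4 tandem array in chromosomal order at equal spacing (horizontal axis), with the log2 difference, 35S::Rap2.9-GFP minus Col-0 (vertical axis), and its standard error for members (circles) and other genes (squares), and crosses for genes not tested. CRK5 at the left end is at -0.05, and the other 13 tested members lie between 0.21 and 1.32.

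Fewer members were tested in each of the smaller chromosome 4 groups. At AT4G04490 to AT4G04570, CRK36 and CRK37 were called higher, CRK38 was not, and CRK40 (AT4G04570) differed by 0.11 ± 0.088 (SE), with a median of 0.89 over these 4. The fifth member there, CRK39, was well above background on none of the 8 arrays. At AT4G11460 to AT4G11530 only CRK31 of 5 members passed the filter: CRK30 and CRK33 were above background on none of the arrays, CRK32 on 1 transgenic and 0 Col-0 arrays, and CRK34 had no matched probe. At AT4G21230 to AT4G21410, CRK27 (AT4G21230) differed by 0.08 ± 0.095 (SE), or -0.21 with normexp, and CRK29 was lower. The 6 members outside these groups and the chromosome 1 pair were CRK4, CRK25, CRK26, CRK41, CRK42 and CRK45. Of the 5 tested there, 2 were called higher and 2 lower, against 18.6% and 16.0% of all genes. CRK26 (AT4G38830) was above background on 1 transgenic and 0 Col-0 arrays and was not tested.

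Where a gene had several probes, they mostly pointed the same way. Of 11 members with at least 2 tested probes, 10 had the same sign on each. CRK6 gave 0.98 and 0.96 and CRK14 gave 0.72 and 0.80. The probes of CRK15, at 0.60 and 0.83, and of CRK11, at 0.65 and 0.93, were further apart. CRK17 was the widest among those of 1 sign, at 0.65 on the brighter probe and 0.27 on the dimmer. The exception was CRK18, with 0.21, 0.18 and -0.12 on 3 probes. The remaining 17 tested members rested on a single tested probe.

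The differences were also read within each slide, which holds 2 arrays of each genotype. Of the 28 tested members, 25 had the same sign on both slides (89.3%, against 77.9% of all genes). The 18 called members all did, as did all 8685 called genes, so for called genes the agreement comes with the call and is no separate check. CRK42 differed by -1.89 within slide 1 and -1.47 within slide 2, CRK37 by 1.30 and 1.35, and CRK23 by 1.34 and 1.29. CRK45 was further apart, at 1.29 and 0.78. CRK31 had 0.24 on slide 1 and 1.72 on slide 2, the widest gap, and CRK5, CRK25 and CRK27 changed sign.

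**Figure D4:**
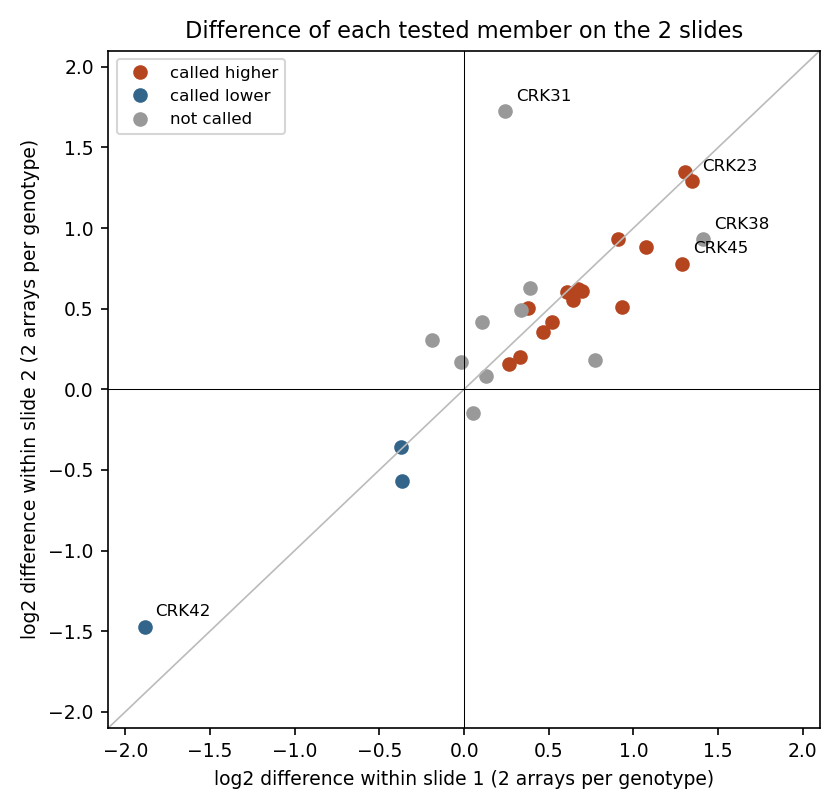
Log2 difference (35S::Rap2.9-GFP minus Col-0) of each tested member within slide 1 (horizontal axis) and within slide 2 (vertical axis), 2 arrays per genotype on each, with the line of equal values. CRK37, at 1.30 and 1.35, lies close to the line, while CRK31 lies far above the line at 0.24 and 1.72.

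Single arrays were also compared. The median deviation of the tested members from their Col-0 mean was 0.63, 0.30, 0.39 and 0.58 on 35S::Rap2.9-GFP arrays 1 to 4 and -0.09, -0.04, 0.02 and 0.12 on Col-0 arrays 1 to 4. All transgenic medians were above all Col-0 medians. The Col-0 medians lie near 0 by construction and most members were higher, so the separation is no separate check. Among the transgenic arrays, array 4 was the highest for 12 members and array 1 for 9, while array 2 was the highest for 1 and the lowest for 12. Col-0 array 4 was the highest Col-0 array for 18 members. Without 35S::Rap2.9-GFP replicate 1, the array with the most probes above background, 14 members were called higher, 3 were called lower and the median was 0.45.

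Genes around the CRKs were read from lists of the pathways they connect to. The counts in these lists stand beside 18.6% of all genes called higher and 16.0% called lower, and nothing is inferred from them. Other proteins with DUF26 domains varied: of 8 tested, 1 rose, 1 fell and 6 were not called, with a median of 0.23. PDLP5, which closes plasmodesmata in response to salicylic acid, rose by 0.78 ± 0.067 (SE, limma adjusted p = 0.000218), and PDLP3, a plasmodesmal protein of the same family, differed by -0.40 ± 0.108 (SE, limma adjusted p = 0.0267). Pattern receptors and their partners had a median of 0.15, with 6 of 19 higher, 1 lower and 12 not called. IOS1, a receptor kinase of immunity, rose by 1.44 ± 0.149 (SE, limma adjusted p = 0.000467). FRK1, a marker gene of flagellin responses, rose by 0.92 (limma adjusted p = 0.0424), PEPR2, a receptor of Pep peptides, by 0.85 (limma adjusted p = 0.0024) and DORN1, the extracellular ATP receptor, by 0.68 (limma adjusted p = 0.00719). The one that fell was BAK1, the co-receptor of many of them, at -0.18 (limma adjusted p = 0.0252), named after its value was seen.

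The oxidative burst and MAP kinase relay that CRKs feed had a median of -0.04. By limma, 3 of 13 were called higher (23.1%, against 18.6% of all genes) and 10 were not called. None was called lower (0, also 0 at an unadjusted p below 0.05), against 16.0% of all genes. PRX33 and PRX34, apoplastic peroxidases that produce reactive oxygen, rose by 3.02 ± 0.451 (SE, limma adjusted p = 0.00228) and 1.13 ± 0.081 (SE, limma adjusted p = 9.69e-05). As close relatives their probes may bind one another's transcripts, which was not tested. MPK6 rose by 0.16 (limma adjusted p = 0.0397). RBOHD, the oxidase that CRK2 phosphorylates and a gene named after its value was seen, averaged 1.84 ± 0.08 in 35S::Rap2.9-GFP leaves and 1.84 ± 0.207 in Col-0 leaves (SD, n = 4 each).

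The salicylic acid route had a median of 0.61. Of its 17 genes, 8 were called higher (47.1%, against 18.6% of all genes), 0 lower (16.0% of all genes were) and 9 not called. CBP60G, named after its value was seen, was the 1 gene lower at an unadjusted limma p below 0.05. It differed by -0.72 (limma adjusted p = 0.0569). PR5 read 3.61, 3.67, 3.79 and 3.95 on the 35S::Rap2.9-GFP arrays and 1.30, 1.62, 0.82 and 1.19 on the Col-0 arrays, and rose 5.74-fold (difference 2.52 ± 0.166, SE, limma adjusted p = 7.46e-05). PR2 rose by 2.01 ± 0.191 (limma adjusted p = 0.000319), PR1 by 1.82 ± 0.38 (limma adjusted p = 0.00932) and EDS5, the exporter of the salicylic acid precursor, by 1.08 ± 0.12 (SE, limma adjusted p = 0.000638). PR1, PR2 and PR5 are the pathogenesis-related genes commonly read as output of this route.

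**Figure D5:**
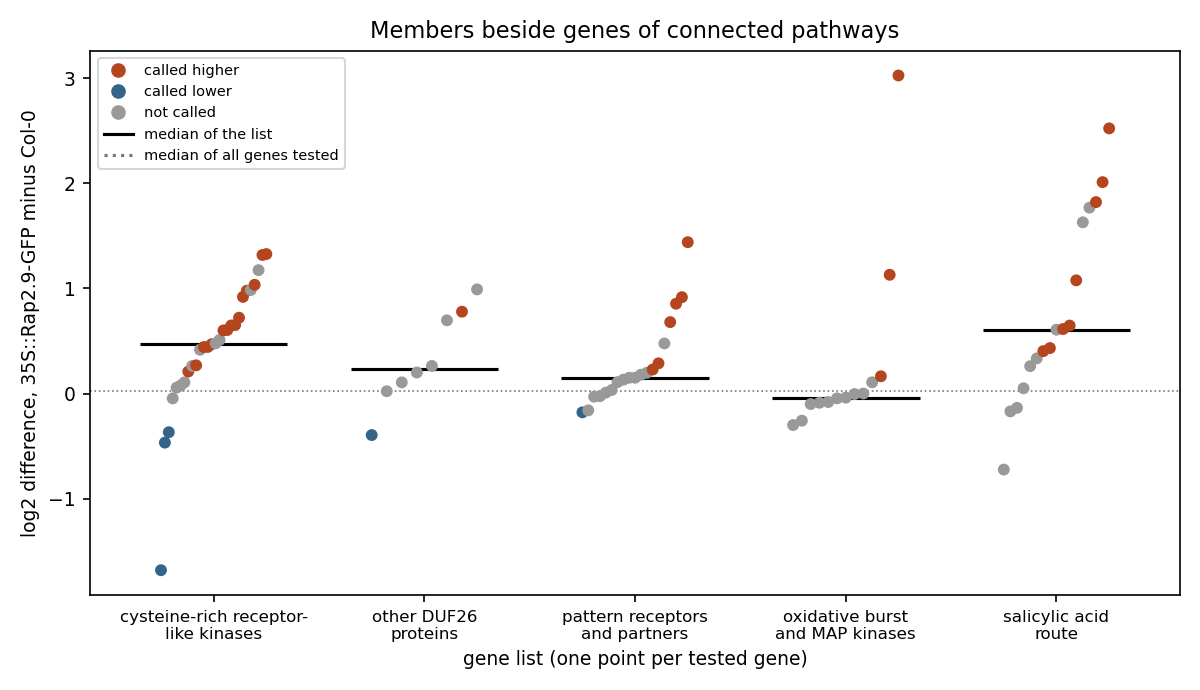
Log2 difference (35S::Rap2.9-GFP minus Col-0, vertical axis) of every tested gene in the CRK family and in 4 lists of connected genes (horizontal axis), coloured by call, with each list's median as a bar and the median of all genes as a dotted line. The medians are 0.47 for the CRKs, 0.23, 0.15, -0.04 and 0.61 for the lists from left to right.

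Markers of leaf cell types and of roots differed between genotypes as well, where 18.6% of all genes were called higher and 16.0% lower. All 5 xylem markers were called higher, with a summed linear signal (array 75th percentile as unit) of 1.58 to 2.46 on the 35S::Rap2.9-GFP arrays and 0.633 to 1.57 on the Col-0 arrays. These sums nearly met, and the arrays of the genotypes overlapped for the xylem markers XCP1 and XCP2. The 4 guard cell markers were all called higher, summing to 2.52 to 2.72 against 1.66 to 2.1 in Col-0 leaves, and both root markers were called higher, summing to 0.349 to 1.12 against 0.0804 to 0.169. Of the root markers, PYK10 differed by 3.10 ± 0.679 and NRT2.1 by 0.59 ± 0.172 (SE), with overlap between genotypes for NRT2.1. The 4 phloem markers summed to 13.1 to 15.7 in transgenic leaves and 17.2 to 20.7 in Col-0 leaves, with 2 called lower. The 6 mesophyll markers, which check the labelled tissue, summed to 647 to 883 and 713 to 832 with 2 called higher, and 0 markers of any list were at background throughout. Their part in the CRK differences was not tested.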

How the data were processed

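RNA from 8 leaf samples (4 per genotype) was labelled with Cy3 from 200 ng of total RNA, per the labels' protocols, and hybridised to Agilent 1-colour arrays of design 021169. The deposited intensity values are the processed signals (background-subtracted and spatially detrended by Agilent Feature Extraction 11.5.1.1, per the file headers). The deposited value table holds log2 values for 43663 probes, each centred so that its median over the arrays is 0. Its normalization is not stated in any label or header. Column medians in it are -0.0146, -0.004, -0.0025 and 0.0019 for 35S::Rap2.9-GFP arrays 1 to 4 and 0.0015, 0.0116, -0.0036 and 0.0041 for Col-0 arrays 1 to 4. Its columns correlate with the scanner log2 values, centred per probe, at 0.918 to 0.958 for 7 arrays and 0.573 for 35S::Rap2.9-GFP array 1. All columns thus run in the direction of the scanner values, that array the least closely. A correlation does not test the scale, and the between-array step stays unknown.

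From the intensities, log2 processed signal minus log2 of the array's 75th percentile over all non-control spots was computed. The arrays carry 45220 spots. Control spots (1417) and outlier spots (25 to 63 per array) were dropped. A probe was tested if well above background on at least 4 of 8 arrays (33147 of 43603 probes). A gene took its brightest tested probe. Probes were matched to loci through RefSeq transcript accessions (34348 matched, and 20268 of 25089 tested genes have a locus). Genotypes were compared with limma 3.58.1 (lmFit, eBayes) in R 4.3.3, with Benjamini-Hochberg adjustment over all genes and a threshold of 0.05, and the procedure was tested on simulated data. Figures were drawn with matplotlib 3.10.9.

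The members, the connected gene lists and the marker lists were chosen with earlier results of these data known. Values on every array are given for the members with the 8 largest and 2 smallest differences. From each connected list, up to 4 called genes with the largest difference are named. Alternatives were background correction (normexp, offset 50, on median signals, since no mean-signal column was used here), quantile and median scaling, the value table, other filters, averaging over a gene's probes, a block for slide or replicate number, and each array left out. No genome or sequence table was used, so no sequences or coordinates are printed.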

Additional observations from a re-analysis of the deposited data

Results flagged for a closer look

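In 5 of 56 groups of 4 arrays (28 members in both genotypes), 1 array stood apart from the other 3 by a gap past Dixon's critical value, at 0.93 to 0.961 of the range. Chance flags about 1 in 20 groups. CRK5 read -0.49 on 35S::Rap2.9-GFP array 1, against -0.01 to 0.02 on the other transgenic arrays. CRK13 read -2.71 on that same array, against -3.49 to -3.45 on the others. CRK45 read 0.27 on 35S::Rap2.9-GFP array 4, against -0.14 to -0.11. CRK14 read 0.05 on Col-0 array 4, against -0.29 to -0.28. CRK41 read -0.82 on Col-0 array 1, against -0.96 to -0.95. With these values included, the genotypes did not overlap for CRK14, CRK41 and CRK45 and overlapped for CRK5 and CRK13.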

How the results depend on the processing

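Over 18 alternative settings, the members called lower numbered 2 or 3 and the median difference of the members ranged from 0.349 to 0.6. The 18 called members kept their sign in all 324 values. Of the 10 members not called, 4 changed sign in 14 of 177 values: CRK5, CRK25, CRK27 and CRK38. Normexp background correction lowered the members called higher to 6, genes called higher to 1285 and genes called lower to 1494, and ended the calls of 10 members (CRK2, CRK11, CRK15, CRK18, CRK19, CRK23, CRK29, CRK36, CRK37 and CRK41). The cause was not tested. Median scaling called 3199 genes higher and 5016 lower, against 4660 and 4025, and 13 members higher. Leaving out 1 array at a time gave 11 to 16 members called higher, 3 to 3 called lower, a median of 0.437 to 0.521, 3525 to 4342 genes called higher and 3022 to 4013 called lower. The lowest count of members called higher, 11, came without 35S::Rap2.9-GFP replicate 4. In those 8 fits CRK19 lost its call in 7, CRK18 in 5, CRK41 in 4 and CRK11 in 1. CRK3 lost its call in the value table, at 0.309. With the replicate number as a block, 13 members were called higher and 3 lower, and genes called were 4021 higher and 2971 lower. The numbers did not pair the samples: same-numbered arrays correlated at 0.155, -0.092, -0.323 and 0.275, and 1 of 4 transgenic arrays correlated best with its own number. CRK21 gained a call with quantile normalization, the value table, the filter on all 8 arrays and the replicate block. With slide as a block 15 members were called higher, CRK38 among them, while CRK41 lost its call. Signal near background limits CRK25, CRK31, CRK38 and the 5 members below the filter.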

Other observations

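Among 13 other genes tested between CRK27 and CRK29 and next to them, 6 were called higher and 3 lower by limma (18.6% and 16.0% of all genes were). HSA32, a heat-acclimation gene that lies between both members, rose by 1.15 ± 0.055 (SE, limma adjusted p = 5.08e-05). Receptor kinase genes of the S-domain type lie in this stretch: RK3 rose by 0.76 ± 0.213 (SE, limma adjusted p = 0.029) and B120, next to CRK28, differed by -0.66 ± 0.177 (SE, limma adjusted p = 0.0245). In the chromosome 1 pair, TAA1, an auxin synthesis gene close to CRK3, differed by -0.45 ± 0.081 (SE, limma adjusted p = 0.00509). These genes were named after their values were seen.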
